A study of Mus musculus with 4 samples.

Results

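The 220 windows described here are stretches of 1 kb on chromosomes 1 to 19 whose RNA polymerase II (Pol II) signal, scaled by total tags, stayed at 0.95 of the control or above in each of 3 knockdowns of pausing factors. In 158 of them it was 1 or more in all 3. They were chosen by their readout. A window entered if the control library held 30 or more tags there and if its normalised tags (tags per 1000000 kept tags of the library), divided by those of the control, came to 0.95 or more in each knockdown library. Of 1976611 windows with any tag, 7705 had enough control tags, and 2.86% of these met the ratio. The ratios to the control are therefore given as a description, with no test. Whether the windows keep Pol II depends on the scaling. The median ratio of all windows was under 1 in each knockdown (0.7785 in shSpt4, 0.5579 in shSpt5, 0.7155 in shNelfE). Scaling by it raises every ratio, so all 220 had to meet the rule again. Quiet stretches of 100 kb, in which no window held 20 pooled tags, were themselves above the control (1.13 times in shSpt4, 1.25 in shSpt5, 1.13 in shNelfE), and measured against them 85 of the 220 windows still reached 0.95 in every knockdown.

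Sequencing of chromatin that an antibody to the N-terminus of Rpb1 pulls down (ChIP-seq) gave the signal of total Pol II, Rpb1 being its largest subunit. The cells were V6.5 mouse embryonic stem cells of C57BL/6-129 background, infected about 4 days earlier with hairpins that target Spt4 (library shSpt4), Spt5 (library shSpt5) or NelfE (library shNelfE), or with a control (library shControl). All 4 cultures, the control included, received 1 µM flavopiridol for 1 h before crosslinking. With 1 library per group nothing here is replicated, and the intervals cover counting error alone. The 3 knockdowns ran on the same flow cell after 2 passages without feeder cells and the control on another after 1 passage, so flow cell, passages and knockdown cannot be told apart. Kept tags ranged from 2646944 in shSpt4 to 3170090 in shControl. Knockdown itself was not checked in these data.

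Pol II that has begun a transcript often stalls a short way downstream of the promoter. Spt4 and Spt5 together make up DSIF, NelfE belongs to NELF, and both complexes bind early elongating Pol II and take part in the stall. Cdk9, the kinase of P-TEFb, phosphorylates DSIF, NELF and the tail of Rpb1 to release Pol II into the gene, and flavopiridol inhibits it. The comparison thus asks where Pol II under a release block stayed as abundant without each factor. Windows carry positions on the mouse build mm8 and no gene names, because no annotation of that build was used.

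Most windows with enough control tags lay below the control, and the 220 are the upper edge of that distribution. The minimum was set on shControl alone, which by selection lowers the knockdown ratios and tag shares given here. By how much was not determined. With the minimum on the mean of the 4 libraries, 4.86% of windows met the rule. Over all 7705 windows a ratio of 0.95 or more was reached by 26.3% for shSpt4, 7.35% for shSpt5 and 13.1% for shNelfE. A ratio of 0.5 or less with an interval below 1 was found in 12.4%, 39.5% and 9.5%, by the rule in none of the 220. Over the 7485 other windows the median ratio was 0.771 for shSpt4, 0.549 for shSpt5 and 0.709 for shNelfE. At the 220 windows, where the rule fixes the lower end, the medians were 1.31, 1.19 and 1.14, with highest values of 3.07, 2.79 and 2.66. The 220 windows held 0.559% of the kept tags of shControl, 0.784% of shSpt4, 0.714% of shSpt5 and 0.706% of shNelfE. All windows with enough control tags together went the other way, at 16.3% of tags for shControl, 13.2% for shSpt4, 9.55% for shSpt5 and 12.1% for shNelfE.

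**Figure D1:**
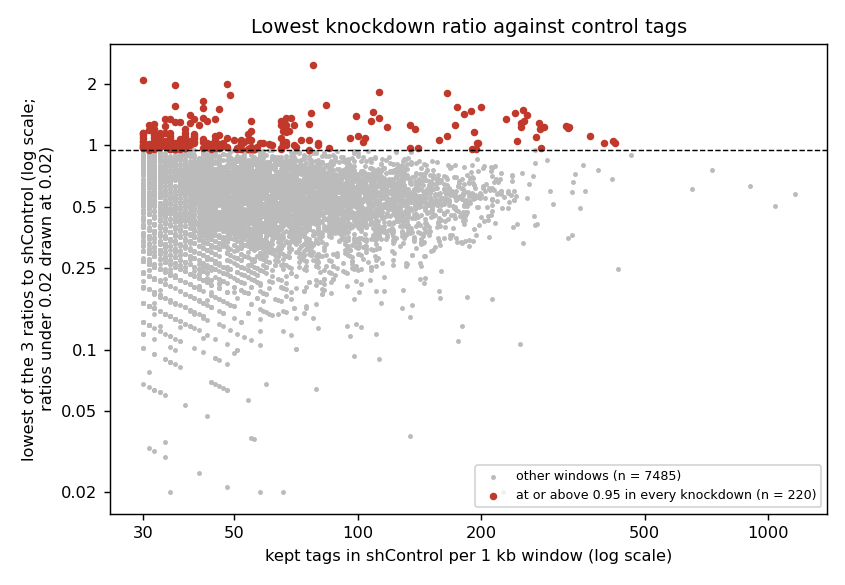
Each point is 1 of 7705 windows of 1 kb, with its kept tags in shControl (log scale) across and the lowest of its 3 knockdown ratios up (log scale, values under 0.02 drawn at 0.02); the dashed line is the ratio of 0.95. The share of windows above the line is highest at both ends, 3.91% at 30 to 39 control tags and 18.9% at 200 or more.

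The share of windows that met the rule was highest at both ends of the control level. From 30 to 39 control tags, 82 of 2095 windows met the rule (3.91%), and the share fell to 2.59% from 40 to 59 tags and to 1.55% from 60 to 99. It was 2.22% from 100 to under 200 tags, and 18.9% at 200 or more, or 21 of 111 windows. With few control tags a chance low count in that 1 library raises all 3 ratios at once, and 121 of the 220 windows had fewer than 50 control tags. At the edges of the rule, 12 of 267 windows with exactly 30 control tags and 10 of 249 with 31 met the ratio, as did 7 of 286 with 29 and 18 of 328 with 28. Among windows with 100 or more control tags, the closest inside were chr13:22048001-22049000 (lowest ratio 0.953), chr10:39947001-39948000 (0.957) and chr11:106604001-106605000 (0.965). The closest outside were chr19:5802001-5803000 (0.946) and chr6:29559001-29560000 (0.941), and the next, on chromosome 18, stood at 0.927.

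Among the fullest windows the distance to the control differed between knockdowns. The fullest of all, chr6:124706001-124707000, held 496 tags for shSpt4, 430 for shSpt5, 475 for shNelfE and 418 for shControl, or 187, 138, 162 and 132 normalised tags. Its level was thus highest in shSpt4 (ratio 1.42, 95% interval 1.25 to 1.62) and shNelfE (1.23, 1.07 to 1.40), and in shSpt5 its interval held 1 (1.05, 0.912 to 1.20). The window at chr1:72188001-72189000 held 440, 427, 520 and 423 tags in the same order of libraries, with shNelfE highest (1.33, 1.16 to 1.51) and shSpt5 again level with the control (1.03, 0.896 to 1.18). At chr15:82977001-82978000 the tags were 439, 402, 456 and 399, and the shSpt5 ratio was 1.02 (0.890 to 1.18). In all 3 of these the shSpt5 value lay closest to the control.

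Further down the list all knockdowns stood above the control. The window at chr12:59958001-59959000 held 405 tags for shSpt4, 396 for shSpt5, 396 for shNelfE and 328 for shControl, and its ratios were 1.48 (1.27 to 1.72), 1.23 (1.06 to 1.43) and 1.30 (1.12 to 1.51). The window at chr4:116700001-116701000 held 366, 351, 367 and 277, with ratios of 1.58 (1.35 to 1.86), 1.29 (1.10 to 1.51) and 1.43 (1.22 to 1.68). The window at chr9:64994001-64995000 went furthest among the 10 fullest, with 358, 370, 375 and 253 tags and ratios of 1.70 (1.44 to 2), 1.49 (1.26 to 1.75) and 1.60 (1.36 to 1.88). These ratios share 1 control count per window. The other 4 of the 10 fullest, at chr1:120286001-120287000, chr1:72177001-72178000, chr11:68889001-68890000 and chr8:32615001-32616000, had ratios from 1.11 to 1.67. Of these 4, chr1:120286001-120287000 had intervals that held 1 in shSpt5 (0.962 to 1.28) and shNelfE (0.968 to 1.30).

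**Figure D2:**
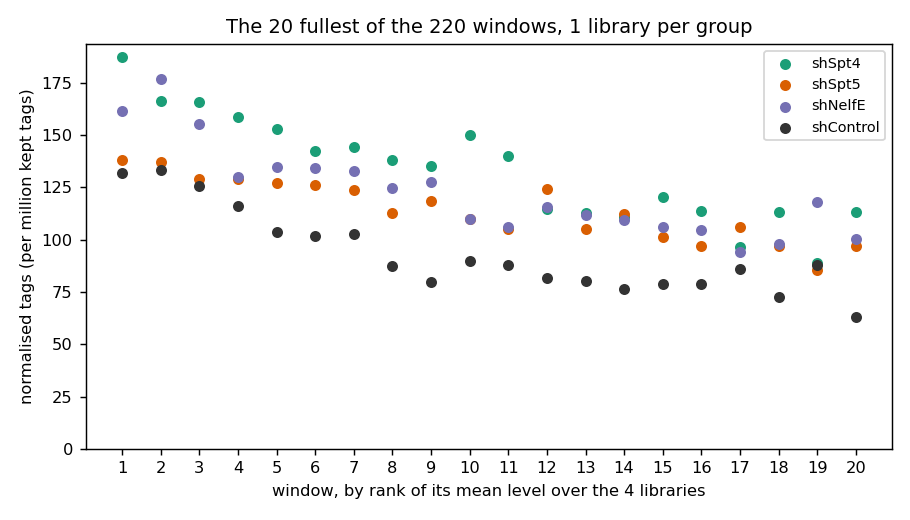
Normalised tags (per 1000000 kept tags) of the 20 fullest windows, ordered by their mean over the 4 libraries, with 1 point per library. In shControl the points run from 63.1 to 133 normalised tags, and shControl is the lowest of the 4 points in all but the window of rank 19, where shSpt5 is lowest.

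The 5 windows with the highest lowest-of-3 ratio were not among the fullest. At chr4:116688001-116689000 the tags were 160 for shSpt4, 214 for shSpt5, 192 for shNelfE and 78 for shControl, which gave ratios of 2.46 (1.86 to 3.26), 2.79 (2.14 to 3.67) and 2.66 (2.03 to 3.50). This window had the highest lowest ratio of all 220. At chr1:72170001-72171000 the tags were 181, 203, 221 and 113, with ratios of 1.92 (1.51 to 2.45), 1.83 (1.44 to 2.32) and 2.11 (1.67 to 2.67). The other 3, at chr13:22051001-22052000, chr11:83088001-83089000 and chr13:23579001-23580000, had 30 to 48 control tags and ratios from 1.98 to 2.65. In all 5 the 3 intervals lay above 1. Over the 220 windows that was so in 33, beside 0.428% of all 7705 windows. In shSpt4 alone 72 of the 220 had an interval above 1 (1.88% of all windows), in shSpt5 63 (0.896%) and in shNelfE 50 (0.818%). A ratio of 2 or more with an interval above 1 was found in 9 of the 220 in shSpt4 (0.221% of all windows), 11 in shSpt5 (0.143%) and 4 in shNelfE (0.0649%). The rule chose on these same counts, so nothing is read from the contrast with all windows.

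The rule bounds each knockdown against the control and sets no order among the knockdowns. In the 220 windows shSpt4 had the highest ratio in 113 (51.4%), shSpt5 in 62 (28.2%) and shNelfE in 45 (20.5%), where over all 7705 windows these shares were 55.6%, 9.14% and 35.2%. Among all other windows shSpt5 was lowest in 5211 of 7485, and among the 220 it was lowest in 77, while shNelfE was lowest in 102. The median ratio of shSpt5 to shSpt4 was 0.931 in the 220 windows and 0.711 in the other windows, and the median ratio of shNelfE to shSpt5 was 0.978 against 1.3. A bound on shSpt5 from below by itself draws these medians toward 1, so they describe the windows chosen. The median of shNelfE to shSpt4 was 0.901 in the 220 and 0.915 in the others. An interval of shSpt5 over shSpt4 below 1 was found in 23 of the 220 windows, beside 33.2% of all windows, and one above 1 in 2 windows, beside 0.896%. For shNelfE over shSpt4 it was 23 below (10.8%) and 6 above (4.52%), and for shNelfE over shSpt5 14 below (1.91%) and 9 above (25.6%).

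Single windows departed from this. The window at chr1:194446001-194447000 held 285 tags for shSpt4, 198 for shSpt5, 248 for shNelfE and 197 for shControl, and its shSpt5 to shSpt4 ratio of 0.590 (0.490 to 0.710) was the lowest of the 45 windows with 100 or more control tags. Its shSpt5 level was that of the control, with shSpt4 well above both. At the other end chr4:131541001-131542000 held 143, 198, 134 and 118 tags, with a shSpt5 to shSpt4 ratio of 1.18 whose interval held 1 (0.944 to 1.47). Among the same 45 windows the 3 with the highest shNelfE to shSpt4 ratio all lay on chromosome 13. At chr13:23747001-23748000 the tags were 138 for shSpt4, 177 for shSpt5, 229 for shNelfE and 138 for shControl, a shNelfE to shSpt4 ratio of 1.50 (1.21 to 1.86). The other 2, chr13:21725001-21726000 and chr13:23771001-23772000, had 1.41 (1.07 to 1.86) and 1.33 (1.12 to 1.58). The lowest of the 45 was 0.702 (0.565 to 0.870), at chr11:83087001-83088000. Over all 220 windows, shallow ones included, this ratio ran from 0.352 to 1.71.

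Position did not enter the rule. Joining windows less than 100 kb apart gave 11 groups of 3 or more, which held 66 of the 220, with 10 pairs and 134 windows alone. A next-door window that met the rule was found for 36 of the 220 (16.4%) and for 1.61% of all 7705 windows. How the 7705 windows group among themselves was not computed. Chromosome 13 had 31 of the 220, or 11% of its windows with enough control tags, and chromosome 11 had 40, or 5.13%. Chromosome 17 had 3 of 440, or 0.682%. In quiet tiles the ratios of chromosome 13 were 1.13 for shSpt4, 1.24 for shSpt5 and 1.13 for shNelfE, close to those of all chromosomes together. Groups of this kind were set after the values were seen.

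Chromosome 13 carries the largest cluster of histone genes of the mouse, whose products package newly copied DNA. Whether the windows below hold histone genes was not determined, as no annotation of mm8 was used. From chr13:23558001 to 23772000, 11 of 26 windows with enough control tags met the rule, and the 15 others had median ratios of 1.05 for shSpt4, 0.872 for shSpt5 and 0.914 for shNelfE, above those of windows elsewhere. The fullest of the 11 were chr13:23771001-23772000, with 235 tags for shSpt4, 266 for shSpt5, 347 for shNelfE and 279 for shControl, and chr13:23563001-23564000, with 255, 330, 276 and 272. Another stretch, from chr13:21724001 to 21791000, held 7 of 10 windows. A shorter one, from chr13:22043001 to 22052000, held 4 of 5. Over the 3 stretches the 22 chosen windows held 2302 tags in shControl, 2419 for shSpt4, 2845 for shSpt5 and 2861 for shNelfE, counts that do not correct for library size.

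On chromosome 1 a group spanned 30 kb, from 72159001 to 72189000, and 4 of its 5 windows met the rule. From left to right they held 259, 113, 322 and 423 tags in shControl, 304, 181, 377 and 440 in shSpt4, 387, 203, 394 and 427 in shSpt5, and 340, 221, 395 and 520 in shNelfE. Each knockdown library was above the control in every one of them, and the ratios were highest in the window with fewest tags. The 4 windows flanking each of them held 26 to 79 control tags together, against a median of 36 over all 7705 windows.

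Chromosome 11 had a group from 87239001 to 87288000, with 7 of 8 windows, and another from 101421001 to 101475000, with 5 of 6. In the first the summed tags were 1463 for shSpt4, 1476 for shSpt5, 1329 for shNelfE and 1056 for shControl, with median ratios of 1.62, 1.42 and 1.31. In the second they were 836, 883, 808 and 661, with medians of 1.53, 1.34 and 1.29. On chromosome 4 the 4 windows from 116687001 to 116709000 all met the rule, with 750, 762, 759 and 497 summed tags. In these groups each window had 58.2 to 93.3% of its tags in its densest 250 bp.

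Groups also differed in the shape of the tags. Fragments of a bound site give plus-strand tags to the left of minus-strand tags, and over the 7485 other windows the median distance between the strands was 98 bp. In the 5 windows from chr9:3000001 to 3037000 the median distance was -1 bp, in the 4 windows from chr2:98463001 to 98469000 it was -1 bp, and in the 3 from chr5:3000001 to 3003000 it was 3.5 bp. So the strands lay on top of each other there. The groups on chromosome 4 and from chr11:87239001 had 89.5 and 46 bp, and that from chr11:101421001 had 10.5 bp. The stretches on chromosomes 9, 2 and 5 had raised ratios over the surrounding 50 kb on each side as well, where the local median for shSpt5 was 1.89 on chromosome 9, 2.47 on chromosome 2 and 3.05 on chromosome 5. In all windows it was 1.01. Other groups were above that too, with 1.67 from chr13:21724001, 1.47 from chr13:22043001, 1.36 on chromosome 1 and 1.26 from chr13:23558001. At chr2:98467001-98468000, with 276, 282, 248 and 175 tags, a single position carried up to 61 reads in 1 library, and 67.9% of its reads were repeats. The stretch from chr11:3051001 to 3100000 had a usual strand distance of 86 bp and held 12 of 31 windows, all shallow, with 30 to 45 control tags in each of them and local ratios of 1.69 in shSpt4 and 1.27 in shSpt5. Within 100 kb of the first tag of a chromosome, 20 of 53 windows met the rule (37.7%).

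Over all 220 windows, 36 had a strand distance under 20 bp (16.4%), against 462 of the 7485 others (6.17%). These 36 had a median repeat share of 30.7% and median local ratios of 1.29 for shSpt4, 1.38 for shSpt5 and 1.17 for shNelfE. The 184 with a distance of 20 bp or more had 14.9%, 1.05, 1.14 and 1.05. The fullest windows were mostly of the latter kind, with distances from 49 to 109 bp in the 10 fullest. Set against its own surroundings within 50 kb in place of total tags, the rule was met by 114 of the 220 windows and by 2.83% of all windows.

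The rule discards repeated reads. Their share of all first-category reads was 17.7% in shSpt5, against 9.07% in shControl, 8.13% in shSpt4 and 10.2% in shNelfE. Repeated reads at a position are reduced to 1 tag, and the share removed had a median of 15.8% in the 220 windows, 12.7% in the others and 10.8% in the 548 windows with a shSpt5 ratio of 0.25 or less. Repeats rise with the level, so windows were set side by side in classes of control tags, which does not equalise their levels. At 100 or more control tags the median level was 92.7 normalised tags against 23.1 for shSpt5, and 61.5 against 40.1 for shControl, so a higher repeat share cannot be told apart from the higher level. At 200 or more control tags the median share was 40.3% in the windows that met the rule and 20.8% in the others, and at 100 to under 200 tags it was 26.6% and 15.5%. Keeping 1 tag per position limits how far a dense window can rise, which draws the tag counts of the libraries together. Each knockdown library kept fewer tags than shControl, so equal counts give a ratio above 1 and meet the rule. How many of the 220 windows met it through near-equal counts was not tested. With all reads kept and scaled to all reads, the 21 windows with 200 or more control tags had median ratios of 1.60 for shSpt4, 1.34 for shSpt5 and 1.37 for shNelfE, against 1.43, 1.23 and 1.32 by kept tags. All 21 still reached 0.95 in every knockdown. Over all 220 windows 169 did, beside 2.54% of all windows, and 48 of the 51 that did not had fewer than 100 control tags.

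**Figure D3:**
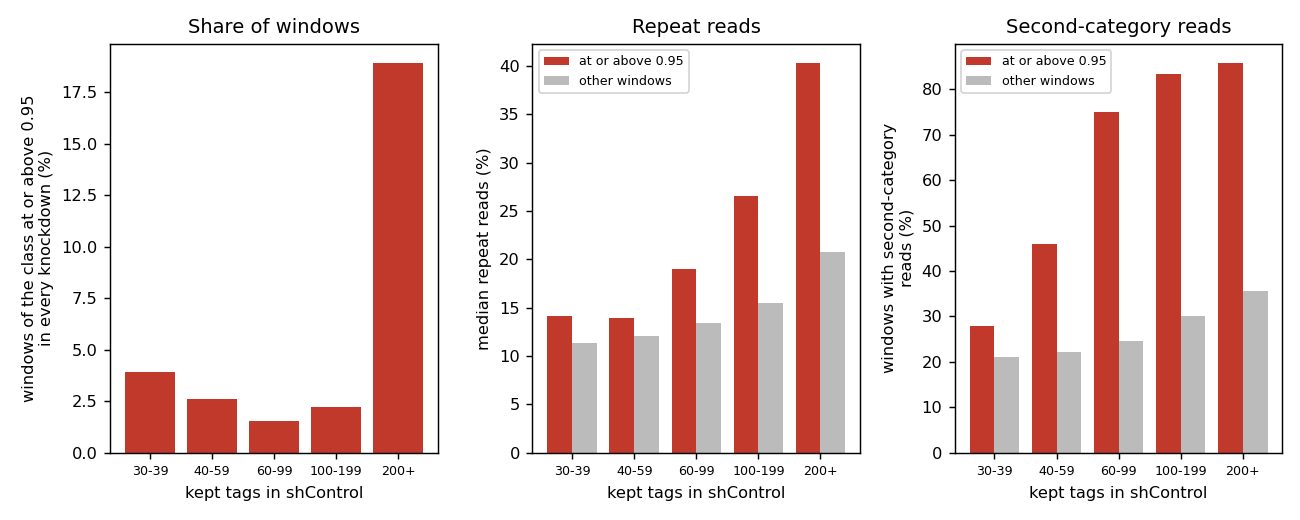
The 5 classes of windows by kept tags in shControl: the share of each class at or above 0.95 in every knockdown (left, %), and, for those windows and the others, the median share of repeat reads (middle, %) and the share of windows with any second-category read (right, %). The share of windows reaches 18.9% at 200 or more tags, where second-category reads were found in 85.7% of these windows and in 35.6% of the others.

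The files keep a second category of reads apart, which the rule does not use. The headers do not say what separates it, and the aligner's options allowed at most 2 reported hits. Such reads were present in 113 of the 220 windows (51.4%), in 23.8% of the others and in 19.5% of the windows with a shSpt5 ratio of 0.25 or less. The difference was larger in fuller windows. From 30 to 39 control tags the shares were 28% in the 220 and 21.1% in the others, and at 100 to under 200 tags they were 83.3% and 30.1%. Most were found at chr2:98467001-98468000, with 8248 over the 4 libraries, at chr14:39187001-39188000, with 5800, and at chr2:98463001-98464000, with 5604.

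In 33 of the 220 windows the control held 30 or more second-category tags at separate positions, so a ratio could be formed from reads that had no part in the choice. These tags were also cut to 1 per position, and they were scaled by first-category kept tags. Equal counts thus give a ratio above 1 in each knockdown. At chr14:39187001-39188000, 5800 reads gave 161, 166, 153 and 150 tags for shSpt4, shSpt5, shNelfE and shControl. The second-category ratio was 0.95 or more in all 3 knockdowns in 24 of the 33, in 3 of the 87 other windows with as many, and in 22.5% of the 120 together. How many passed through near-equal counts was not tested. The 24 include windows of the stretches from chr2:98463001, chr5:3000001 and chr9:3000001. There the strands lay on top of each other and local ratios were raised. Others of the 24 also had strand distances under 20 bp. Among them were chr11:101458001-101459000 (3.5 bp), chr11:101461001-101462000 (10.5 bp), chr11:87287001-87288000 (12.5 bp) and chr14:39187001-39188000 (-2 bp). The count without such windows was not computed. The median second-category ratio in the 33 was 1.31 for shSpt4, 1.13 for shSpt5 and 1.13 for shNelfE, and in the 87 it was 0.832, 0.555 and 0.750. At chr11:101458001-101459000 the second-category tags were 413 for shSpt4, 441 for shSpt5, 415 for shNelfE and 396 for shControl, with ratios of 1.25, 1.13 and 1.13, beside 1.25, 1.25 and 1.30 by first-category tags. Both kinds of reads lay above the control in this window, where the strands nearly overlapped and 50.55% of first-category reads were repeats. At chr13:21742001-21743000 they were 138, 157, 126 and 179, with ratios of 0.923, 0.892 and 0.760, so there the second category went below the control. If a second-category read is listed at both of its places, windows that are copies of each other share reads and are not separate cases. The libraries and the control are the same as in the rule, so no test was made.

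**Figure D4:**
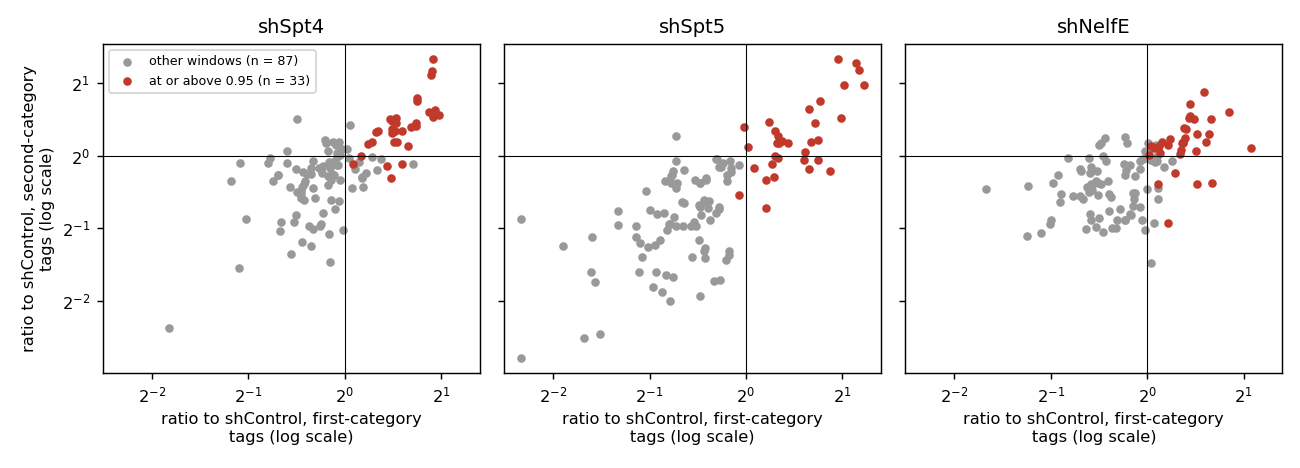
For the 120 windows with 30 or more second-category control tags, each panel (1 knockdown library each) sets the ratio to shControl in first-category tags (across, log scale) against that in second-category tags (up, log scale); lines mark a ratio of 1. The 33 windows chosen on first-category tags lie mostly above 1 on both axes, with second-category medians of 1.31, 1.13 and 1.13. Second-category tags are 1 per position and scaled by first-category kept tags, so equal counts lie above 1.

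The signal beside the windows, relative to the control, was higher than beside the others. In the 4 windows flanking each of the 220, normalised tags divided by the control's had medians of 1.20 for shSpt4, 1.04 for shSpt5 and 0.991 for shNelfE. Beside the other windows the medians were 0.871, 0.709 and 0.816. A flank ratio of 0.95 or more was found at 151, 130 and 119 of the 220, beside 41.6%, 27.2% and 32.8% of all windows. A peak cut by the grid spills into the next window, and some flanks hold other windows of the 220. At the 101 windows with no other window of 30 control tags within 2 kb, the flank medians were 1.26, 1.19 and 1.08, and at 4255 such windows among the others they were 0.958, 0.848 and 0.917. Quiet 100 kb tiles stood at 1.13, 1.25 and 1.13 times the control by the same scaling. Flank medians near these levels cannot be told apart from background. Flanks held fewer than 50 control tags at 107 of the 220 windows and at 60.8% of all windows. Directly beside the 220 lay 88 windows with enough control tags that missed the rule. Their median ratios were 0.946 for shSpt4, 0.787 for shSpt5 and 0.806 for shNelfE, between those of the 220 and of the rest.

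Averaged around the densest 250 bp of each window, the 220 had their summit where the centring puts it. The levels come from the counts the rule chose on, so the order of the libraries at the centre describes the choice. In the 100 bp steps with midpoints within 150 bp of the centre, the mean level was 53.2 normalised tags per kb for shControl. It was 74.6 for shSpt4, 66.6 for shSpt5 and 65.6 for shNelfE. At the centre the knockdown levels were 1.40, 1.25 and 1.23 times that of the control. From 1 to 3 kb away these ratios were 1.09, 1.06 and 0.999. In the other windows, which the rule left out, the levels were 40.1 for shControl, 31.7 for shSpt4, 21.7 for shSpt5 and 28.5 for shNelfE at the centre, with ratios of 0.852, 0.718 and 0.829 from 1 to 3 kb. A window of the 220 had a median of 62.9% of its tags in its densest 250 bp, against 59.3% in the others. At 200 or more control tags these medians were 66.7% and 54%, and there the flanks held a median of 43 control tags beside the chosen windows and 90.5 beside the others.

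**Figure D5:**
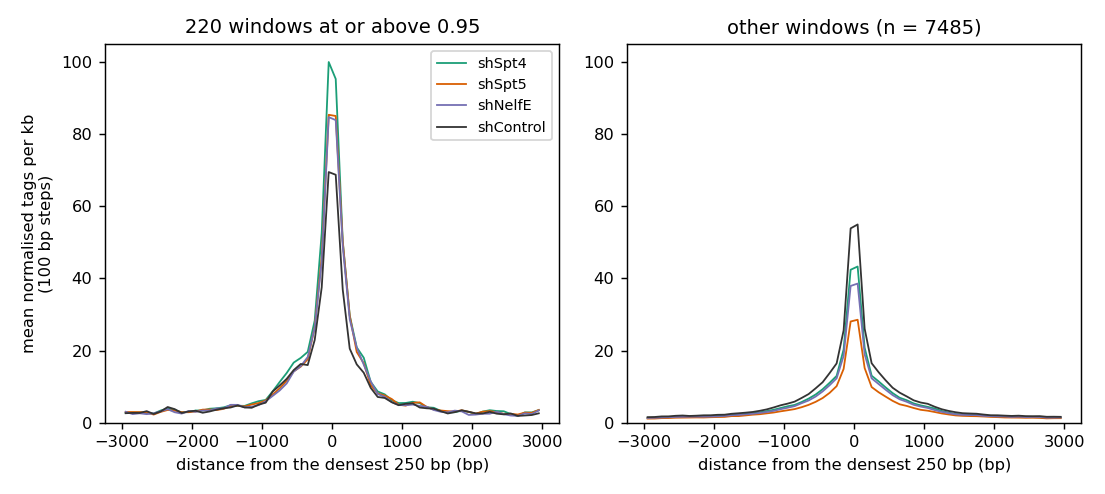
Mean normalised tags per kb in steps of 100 bp against the distance from the densest 250 bp, for the 220 windows (left) and the 7485 others (right), with 1 line per library. In the 220 windows the 3 knockdown lines lie above shControl at the centre and near it 1 to 3 kb away. Over the steps with midpoints within 150 bp the means are 74.6, 66.6 and 65.6 against 53.2. In the others the knockdown lines lie below shControl throughout.

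The 107 windows without any second-category read were mostly shallow, with a median of 38 control tags and a median repeat share of 13.8%. Their median ratios were 1.22 for shSpt4, 1.11 for shSpt5 and 1.06 for shNelfE, and only 2 of them had all 3 intervals above 1, against 31 of the 113 with such reads. Among all 107 the fullest were chr1:120286001-120287000, with 420 tags for shSpt4, 402 for shSpt5, 382 for shNelfE and 368 for shControl, chr10:39948001-39949000, with 298, 328, 328 and 254, and chr3:96414001-96415000, with 294, 350, 322 and 242. The last had ratios of 1.45, 1.47 and 1.44, which is close to equal in all knockdowns. At chr5:143171001-143172000 the tags were 190, 212, 186 and 195, and all knockdowns lay within 1.17 times the control. Of the 107 windows 24 reached 0.95 in every knockdown when scaled by quiet tiles, and of the 113 with second-category reads 61 did. Over all windows this share was 1.1%.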

How the data were processed

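The authors deposited a signed genome position for every aligned read, minus for the minus strand, per the file headers; the other values used here were computed from these positions. Reads were aligned with Bowtie to mm8 (-e 70 -k 2 -m 2 -n 2 -l 36), per the file headers, whose version the sources do not state. Whether repeats were removed before deposit is not stated. Positions were taken to count from 0, which the headers leave unsaid, so bounds may be off by 1 bp. First-category reads were reduced to 1 tag per signed position (3486288 reads to 3170090 tags in shControl, 2881229 to 2646944 in shSpt4), moved by 41 bp toward the fragment centre and counted in 1 kb windows, and scaled to 1000000 kept tags. Quiet tiles (8768) had at least 200 pooled tags. Ratios have exact 95% binomial intervals (scipy 1.17.1). These were tried only on simulated independent counts, which is the intervals' own assumption, without repeats or library effects. The intervals cover counting error only, since there was 1 library per group. They also take tags as independent, which PCR copies (18 cycles) would not be. With 1 library per group no test was made. The windows and lists were chosen with earlier results of these data known. Named windows were the 10 fullest, the 5 with the highest lowest ratio, 3 on each side of the ratio threshold, the longest runs and the 3 highest and lowest between knockdowns among those with 100 control tags; other windows were named after their values were seen. The whole cell extract named in the design was not used here.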

Additional observations from a re-analysis of the deposited data

How the results depend on the processing

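Of 100 values recomputed under 13 alternatives, 76 stayed within 1.5 times the count or within the interval of the value reported. The scaling moved most. Scaled by the median ratio of all windows, 2410 windows (31.3%) met the rule, 538 had such a neighbour, the flank medians were 1.45 in shSpt5 and 1.19 in shNelfE, and the medians of shSpt5 and shNelfE to shSpt4 were 1.06 and 0.951, since that scaling sets the median window to 1 in each library by construction. Scaled by quiet 100 kb tiles, 85 windows (1.1%) met it, 15 with a neighbour, with 66.7% of tags in the densest 250 bp and a shSpt5 flank median of 0.956. Scaled by 129 quiet tiles of 1 Mb, an alternative chosen after seeing the data, 37 windows (0.48%) did. With 50 control tags asked, 99 windows (2.32%) met the rule, 18 with a neighbour, with a shSpt5 to shSpt4 median of 0.893 and 66% in the densest 250 bp. A ratio of 1 or more was met by 2.05%. A minimum on the mean of the libraries gave 4.86% and 60 windows with a neighbour. Without other windows in the flanks, also chosen after seeing the data, the flank medians were 1.26 in shSpt4 and 1.19 in shSpt5.

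With all reads kept 229 windows met the rule, 169 of them among the 220, and with libraries thinned to equal depth 168 did, 132 among the 220. Of the 51 windows lost with all reads kept, 48 had fewer than 100 control tags.

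No paired analysis was possible because each group held 1 library and the labels give no replicate numbers.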

Other observations

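The longest runs of adjacent windows that met the rule were of 3 windows, at chr5:3000001-3003000 (334 tags for shSpt4, 457 for shSpt5, 301 for shNelfE and 223 for shControl) and at chr11:3077001-3080000 (103, 150, 111 and 108). The fullest run of 2 was chr5:115750001-115752000, with 501, 517, 536 and 423 tags. The 1 Mb stretches with most of the 220 windows were chr11:3000001-4000000, with 12 of 56 windows with enough control tags, and chr13:23000001-24000000, with 12 of 32.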
